A study of Caenorhabditis elegans with 24 samples.

Results

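The 8 libraries described here are the uninjured controls collected 8 h and 96 h after mock handling, 4 libraries at each time, out of 24 libraries in the series. They are all the libraries with those 2 labels, and when the pair of times was chosen both groups were also known to be low in rRNA reads, which is a measured value. By their labels all worms, injured and uninjured, were wild type (N2) Caenorhabditis elegans kept at 25 °C and fed an RNAi strain targeting cdc-25.1, which encodes a Cdc25 phosphatase of cell division and whose RNAi leaves adults without progeny. The study's own data listing also gives N2 for this time course. Its figure legends for RNA-seq of fos-1 and lys-3 after injury instead name CF512, a mutant strain that is sterile at this temperature. The strain of these libraries and the way they were made sterile are therefore in conflict between the sources, and the labels were followed here. On day 1 of adulthood the controls were suspended, washed and spun like the injured worms but were not agitated, and poly(A) RNA of whole worms was sequenced later. The comparison of 96 h with 8 h therefore asks how the transcriptome of sterile adults changed over 4 days without injury. Age, time since handling and the day of collection differ together between the 2 groups and cannot be told apart.

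Somatic cells of adult C. elegans do not divide, and cell division goes on only in the germline. The hermaphrodite makes its sperm before adulthood and afterwards makes oocytes, which take up yolk proteins, the vitellogenins, made by the intestine and secreted into the body cavity. The cuticle is an exoskeleton of collagens secreted by the epidermis at each moult, and adults no longer moult. Ageing adults are known for a decline of the germline, for accumulation of yolk and for changed expression of stress and immune genes.

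The estimated depth of the 8 libraries was about 19737500 to 27375000 mapped reads, and rRNA genes took 1.27 to 1.84% of the reads. Expression is given as RPKM, reads per kilobase of exon scaled to the mapped reads of each library. Gene positions are those of the WBcel235 (ce11) annotation, and statistics in brackets are log2 changes of 96 h minus 8 h on the log2(RPKM + 0.5) scale. Pearson correlations of log2(RPKM + 0.5) over the genes tested were 0.981 to 0.991 within a group and 0.836 to 0.897 between the groups, across genes that are not independent replicates. cdc-25.1, the RNAi target named in the labels, lies on chromosome I, 6469386 to 6471922, minus strand. It read 60.2, 44.7, 24.8 and 17.8 RPKM at 8 h and 156, 17.6, 46.4 and 47.9 at 96 h. Library 1 of 96 h was the highest and the groups overlapped (log2 change 0.59, SE 0.60, limma adjusted p = 0.409, exact permutation p = 0.514), and no library is labelled as without the RNAi, so how far it lowered the gene was not measured. Among the defining markers of cell types that whole worms could hold, the sperm phosphatase gene gsp-3 read 0.17 to 0.43 RPKM at 8 h and 0.45 to 0.73 at 96 h. The embryonic endoderm gene end-1 read 0.38 to 0.65 and 0.27 to 1.22, and med-1 was at most 0.54 in any of the 8 libraries. Germline, oocyte, neuronal, muscle, intestinal and epidermal markers were detected in every library.

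Of 14813 genes tested, 9199 changed between 8 h and 96 h, which is 62.1% (limma, two-sided, Benjamini-Hochberg adjusted p below 0.05). At 96 h, 5355 genes (36.2%) were higher and 3844 (26.0%) were lower. At least a 2-fold change was seen for 3114 of the genes that were higher and 2021 of those that were lower. The 4 libraries of 96 h did not overlap the 4 of 8 h for 70.9% of the genes. A fit of the 8 control libraries alone called more genes, 6499 higher and 4916 lower at 96 h. Across all genes the median log2 change was 0.19, or 0.04 with median-of-ratios scaling between libraries, under which 5337 genes were higher and 5351 lower. Changes of gene groups are therefore to be read against that shift, and counts of called members against the 36.2% higher and 26.0% lower of all genes. RPKM values are shares of a library, and in whole worms fewer cells of a type and less RNA per cell cannot be told apart. The plot of list members by log2 change shows the range that these changes covered.

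**Figure D1:**
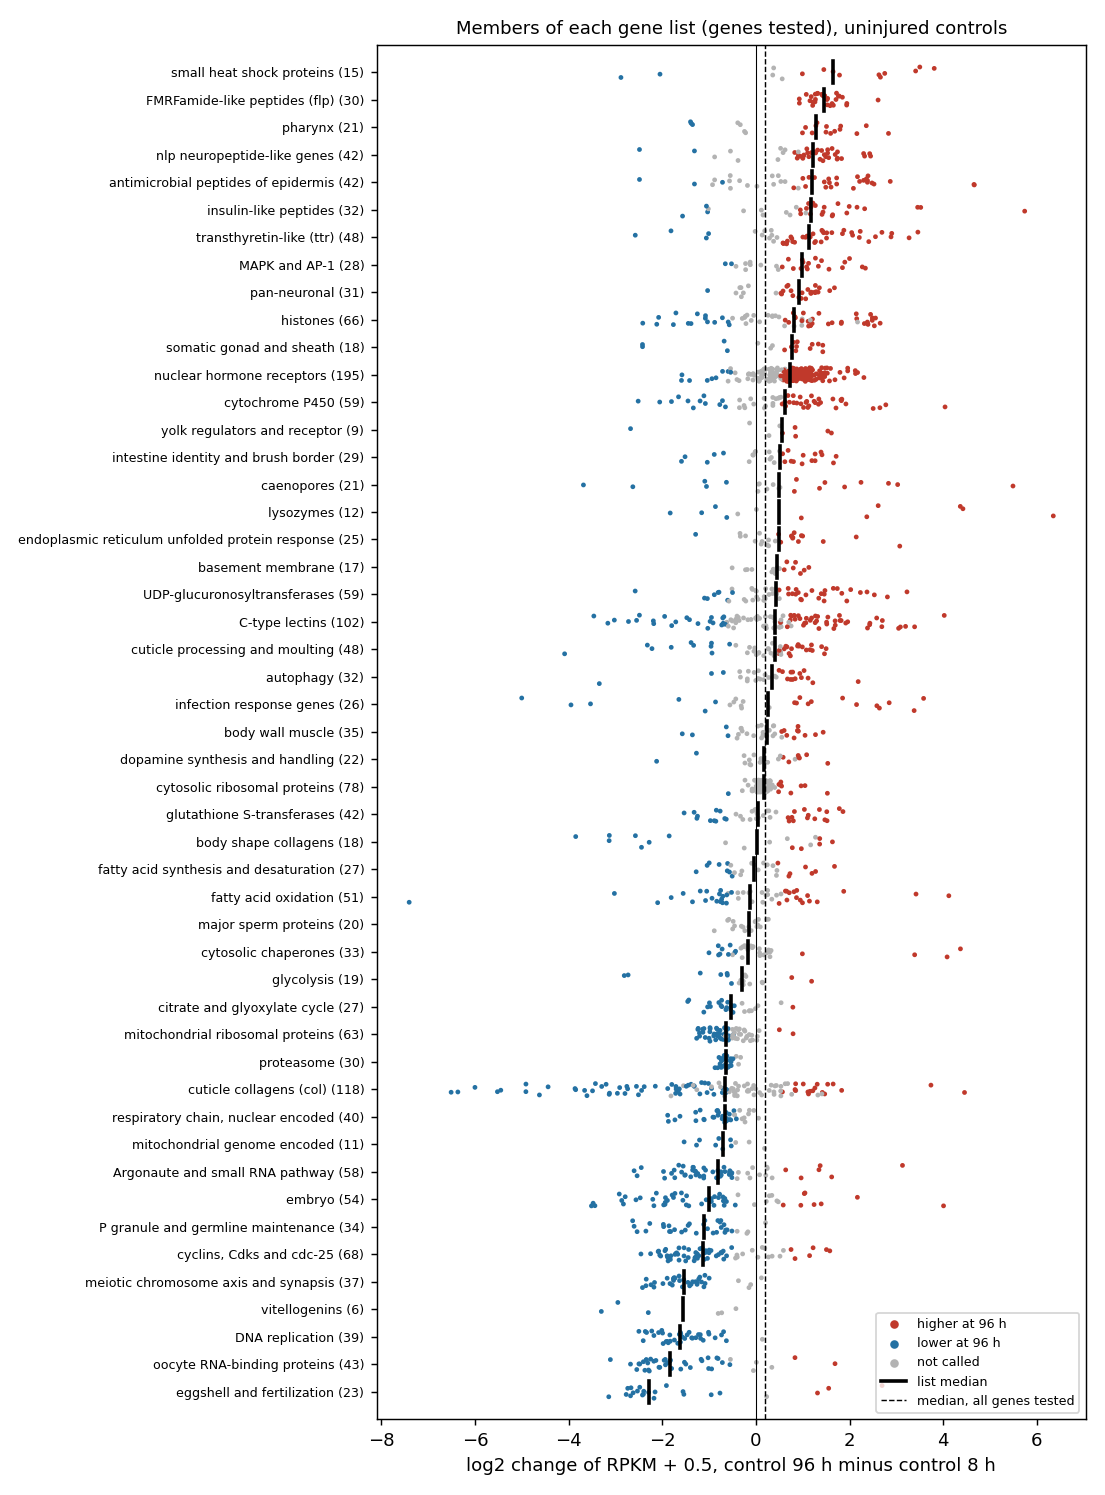
Each point is a gene tested, placed by its log2 change from 8 h to 96 h in uninjured controls (x axis), and each line is a gene list with its number of genes tested in brackets (y axis). Red and blue points passed the limma test as higher or lower, grey points did not, black bars are list medians and the dashed line is the median of all genes. Germline and oocyte lists sit at the lower end, with medians down to -2.29, and small heat shock protein and neuropeptide lists at the upper end, with medians up to 1.65.

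Called genes were spread unevenly over the chromosomes. On the X chromosome 1058 of 2159 genes tested (49.0%) were higher at 96 h and 278 (12.9%) were lower, with a median log2 change of 0.54. On the autosomes together 4218 of 12424 genes were higher and 3517 (28.3%) were lower, with a median of 0.10. Chromosome V came next after X, with 44.7% higher and 22.1% lower, and chromosome I had the highest share of genes lower, 33.5% against 27.1% higher. The X chromosome of C. elegans holds few genes that are expressed mainly in the germline. Among transcripts annotated as lincRNA, 31 of 56 tested were higher and 1 was lower.

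**Figure D2:**
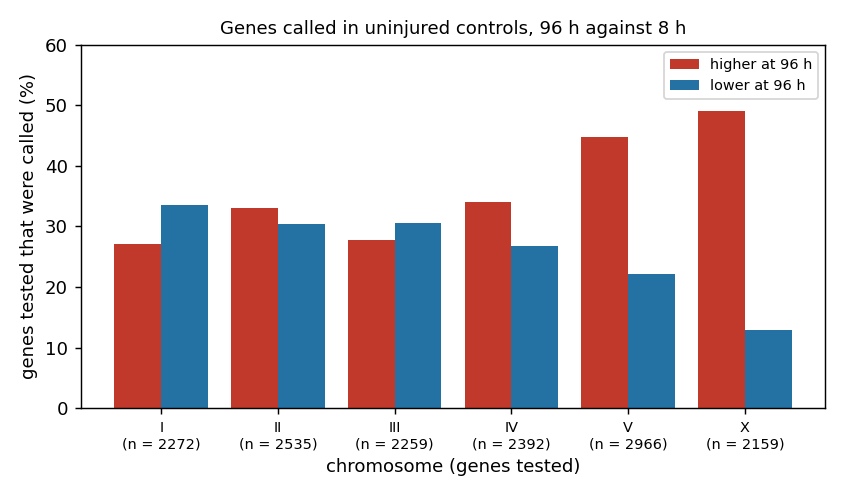
Bars give the percent of genes tested on each chromosome (x axis, with the number tested) that were higher (red) or lower (blue) at 96 h in uninjured controls by the limma test (y axis, percent). Chromosome X had 49.0% of its genes higher and 12.9% lower, whereas chromosome I had 27.1% higher and 33.5% lower.

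Genes of the germline and of oocytes were mostly lower at 96 h. Of 39 DNA replication genes, 38 fell and 0 rose, with a median log2 change of -1.61, and the 3 named next belong to the replication machinery. The replicative helicase subunit gene mcm-2 (chromosome II, 12001509 to 12006625, minus strand) read 100, 127, 117 and 87.7 RPKM at 8 h and 17.8, 14.5, 17.8 and 25.2 at 96 h, a 5.73-fold lower mean (log2 change -2.5, SE 0.23, limma adjusted p = 1.1e-11). Every library of 96 h was below every library of 8 h. The ribonucleotide reductase gene rnr-1, which supplies deoxynucleotides, read 167, 222, 190 and 152 RPKM at 8 h and 29.8, 27.2, 33.5 and 47.7 at 96 h (log2 change -2.41, SE 0.23, limma adjusted p = 3.24e-11). The sliding clamp gene pcn-1 had log2 change -2.18. Of 68 genes of cyclins, Cdks and mitosis, 50 fell and 6 rose (median -1.13). The B-type cyclin gene cyb-3 changed by -2.46, the Aurora kinase gene air-1 by -2.03 and the anaphase activator gene fzy-1 by -2.05 on the log2 scale.

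Meiotic genes followed the same direction. Of 37 genes of the meiotic chromosome axis and synapsis, 33 fell and none rose (median -1.54). They include sun-1, which links chromosomes to the nuclear envelope (-2.35), the axis gene him-3 (-2.24) and him-5, which is needed for crossovers on the X chromosome (-2.34). Of 34 genes of P granules and germline maintenance, 30 fell and none rose (median -1.103). P granules are the RNA-protein bodies of germ cells, and their genes pgl-3 and pgl-1 changed by -2.63 and -2.27. The Notch receptor gene glp-1, which keeps germline stem cells dividing, read 41.95, 53.2, 51.4 and 39.5 RPKM at 8 h and 16.9, 14.9, 16.19 and 20.2 at 96 h (log2 change -1.42, SE 0.22, limma adjusted p = 8.2e-07), and its libraries did not overlap. The P granule helicase gene glh-1 fell less, by 0.75 on the log2 scale (adjusted p = 0.00304). Of 58 genes of Argonautes and small RNA pathways, 42 fell and 6 rose. The germline Argonautes wago-1, hrde-1 and wago-4 changed by -2.54, -1.80 and -1.95, while the RNA-dependent RNA polymerase gene rrf-2 rose, from 5.0 ± 0.702 to 47.5 ± 3.73 RPKM (SD, n = 4; log2 change 3.13, SE 0.22, limma adjusted p = 1.98e-14).

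Genes of oocytes and eggshells had the lowest list medians of the 49 lists described. Of 43 genes of oocyte RNA-binding proteins, 37 fell and 2 rose (median -1.84). The zinc finger gene oma-2, which acts in oocyte maturation, read 264, 362, 339 and 229 RPKM at 8 h and 37.5, 21.1, 33.2 and 48.3 at 96 h, an 8.53-fold lower mean (log2 change -3.11, SE 0.26, limma adjusted p = 3.35e-12). Library 2 of 96 h was the lowest of all 8 and library 4 the highest of its group, and that order also held for pos-1, mex-5 and puf-11. The embryonic polarity genes pos-1 and mex-5 changed by -2.68 and -2.29, and the yolk receptor gene rme-2 by -2.68. Of 23 genes of eggshell and fertilization, 19 fell and 3 rose (median -2.29). The chitin synthase gene chs-1 changed by -2.62, the proteoglycan gene cpg-3 by -3.14 and egg-1, a receptor-like gene needed for fertilization, by -2.77. The 3 that rose were cpg-7, perm-2 and perm-4, the last pair named after their values were seen. perm-4 (chromosome IV, 1121494 to 1125107, minus strand), whose name comes from the permeability barrier of the egg, read 2592, 2095, 2258 and 2515 RPKM at 8 h and 7074, 7223, 6694 and 6703 at 96 h (log2 change 1.55, SE 0.23, limma adjusted p = 3.8e-07). The neighbouring perm-2 read 2402, 1991, 2052 and 2414 RPKM at 8 h and 5516, 5777, 5400 and 5281 at 96 h (log2 change 1.31, SE 0.23, limma adjusted p = 6.58e-06). Both were abundant, and the list took 1.19 ± 0.0538% of summed RPKM at 8 h and 1.77 ± 0.0447% at 96 h (SD, n = 4) although most of its members fell.

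The embryo list, whose genes are transcribed in early embryos, had 39 of 54 genes lower and 8 higher (median -1.01). Its share of summed RPKM went the other way, from 0.146 ± 0.00626% at 8 h to 0.176 ± 0.00538% at 96 h (SD, n = 4; not tested), and the libraries of the times did not overlap. vet-6, vet-2 and vet-1, named for very early transcripts, changed by -3.48, -2.87 and -2.79. They fell from 32.5 ± 6.21 RPKM at 8 h to 4.06 ± 1.13 at 96 h in the case of vet-2 (SD, n = 4). Of 20 major sperm protein genes tested none passed in either direction, although the family's genes are near-identical copies whose reads depend on unstated rules for shared reads. Their share of summed RPKM was 0.00150 to 0.00627% at 8 h and 0.00117 to 0.00655% at 96 h (exact permutation p = 0.743). At an unadjusted p under 0.05, 1 of them passed in limma. In the somatic gonad list 11 of 18 genes rose and 4 fell. The 2 largest falls there were the innexin genes inx-14 (-2.42) and inx-22 (-2.42), gap junction proteins of germ cells, while the receptor genes let-23 and egl-15 rose (1.43 and 1.33). Histone genes split, with 30 of 66 higher and 15 lower, beside 36.2% and 26.0% of all genes tested. The linker histone genes hil-1 and hil-4 moved in opposite directions, hil-1 from 13.2 ± 2.42 to 84.7 ± 7.27 RPKM and hil-4 from 213 ± 46.7 to 50.4 ± 12.8 (SD, n = 4; log2 changes 2.65 and -2.08). Most histone genes are near-identical copies and their messages mostly lack a poly(A) tail, so their values in poly(A) RNA are uncertain.

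**Figure D3:**
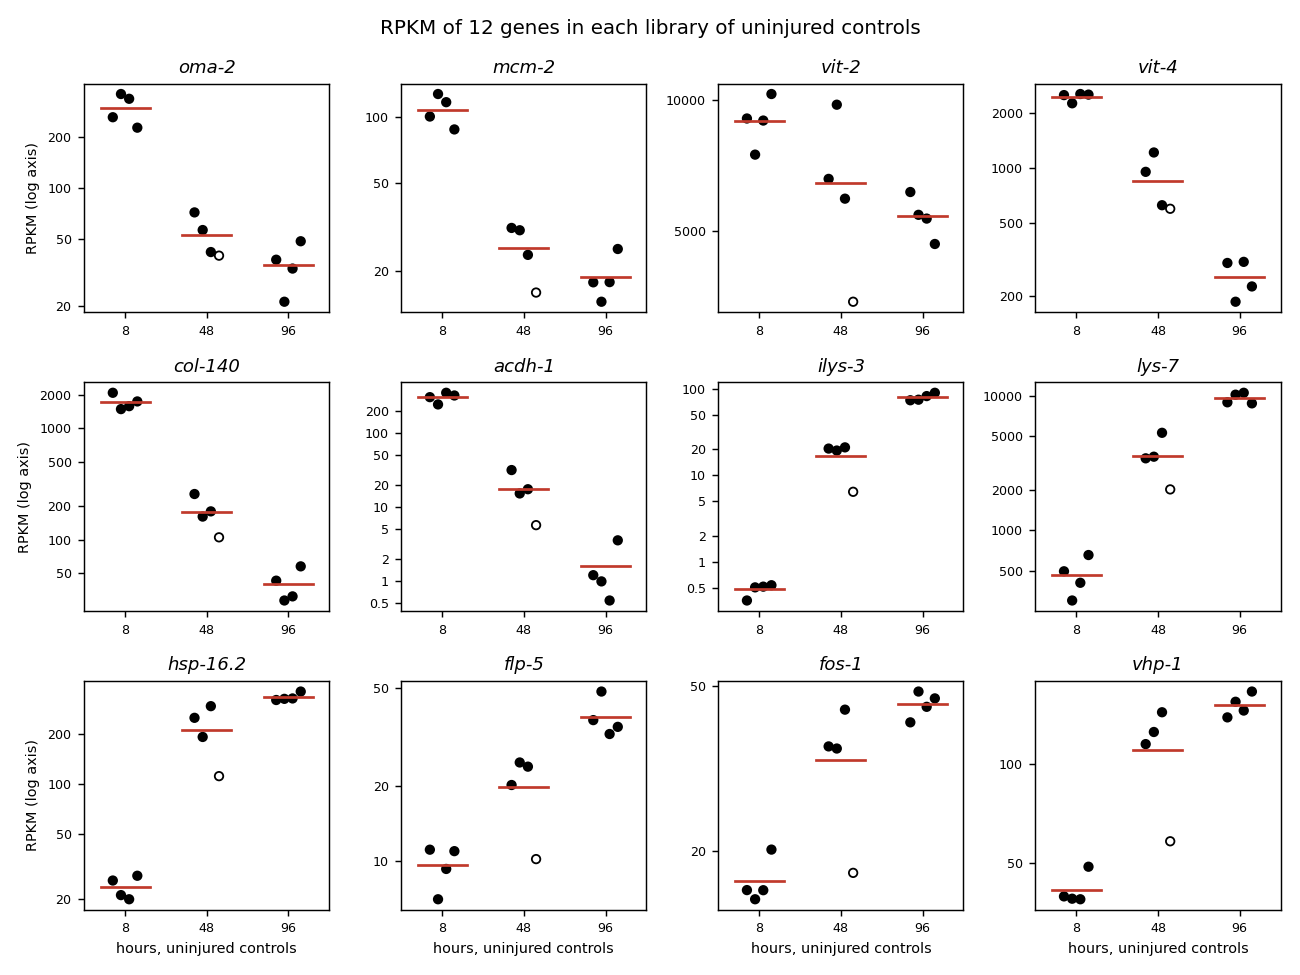
Each panel gives the RPKM (y axis, log scale) of a gene in each library of uninjured controls at 8, 48 and 96 h (x axis); points are libraries, red lines are means over 4 libraries, and the open point is library 4 of 48 h, in which rRNA took 46.1% of the reads. For every gene shown the 4 libraries of 96 h lie apart from the 4 of 8 h, as they do for 70.9% of all genes tested.

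Yolk protein transcripts took a smaller share of the transcriptome at 96 h. The 6 vitellogenin genes took 4.44 ± 0.485% of summed RPKM at 8 h and 2.12 ± 0.285% at 96 h (SD, n = 4; exact permutation p = 0.0286, adjusted p = 0.0429 over 6 lists). By gene, vit-1, vit-3 and vit-4 passed the test and vit-2, vit-5 and vit-6 did not. vit-4 (chromosome X, 3558769 to 3563965, minus strand) read 2517, 2270, 2552 and 2533 RPKM at 8 h and 303, 186, 307 and 225 at 96 h (log2 change -3.30, SE 0.38, limma adjusted p = 2.01e-07). vit-2, among the most abundant transcripts of the worm, read 9082, 7495, 8983 and 10342 RPKM at 8 h and 6145, 5444, 5336 and 4662 at 96 h (log2 change -0.73, SE 0.39, limma adjusted p = 0.108). Its groups did not overlap, and the same was true of vit-6 (log2 change -0.81, SE 0.39, limma adjusted p = 0.0772). vit-5 overlapped, with 7347, 6101, 7037 and 7895 RPKM at 8 h and 6197, 4866, 5574 and 4532 at 96 h (log2 change -0.43, SE 0.36, limma adjusted p = 0.309). In a fit of the 8 control libraries alone, which estimates the spread from these libraries only, all 6 genes passed. vit-3, vit-4 and vit-5 are near-identical copies, so the values of each are uncertain. Among 9 genes of yolk regulators and receptors, 5 rose and 1, rme-2, fell. ceh-60, a homeodomain gene that activates vitellogenins, rose from 5.71 ± 1.29 to 17.2 ± 0.724 RPKM (SD, n = 4; log2 change 1.54, SE 0.26, limma adjusted p = 3.95e-06) and pqm-1, a zinc finger transcription factor gene, from 35.3 ± 4.52 to 109 ± 10.1 (log2 change 1.61, SE 0.23, limma adjusted p = 1.39e-07).

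**Figure D4:**
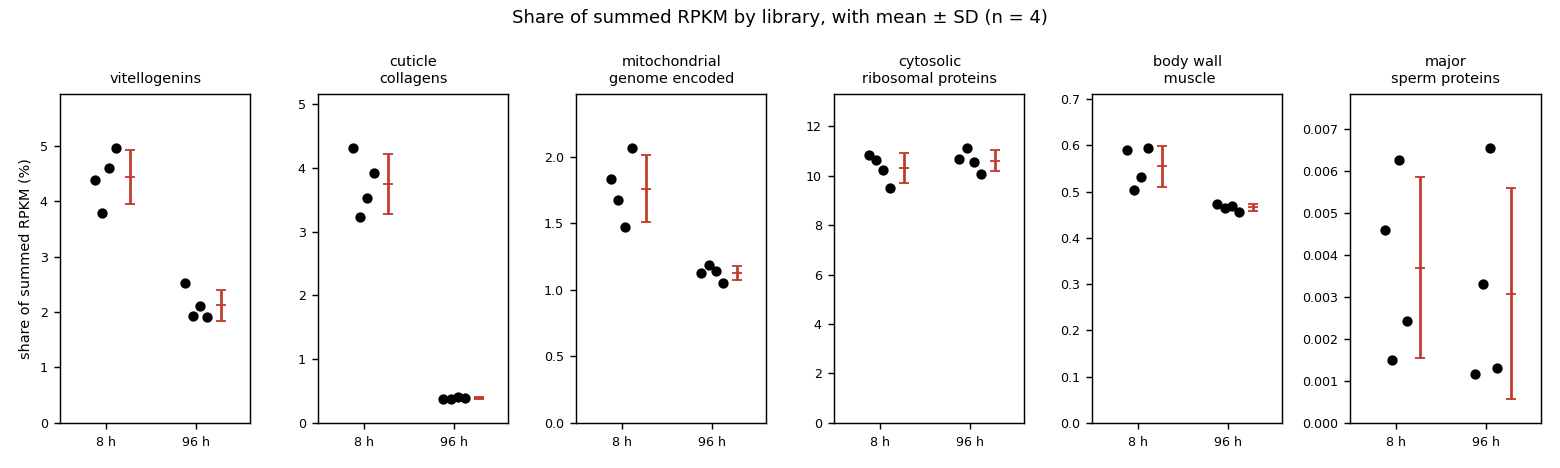
Points give the share of summed RPKM (y axis, percent, starting at 0) of 6 gene lists in each control library of 8 h and 96 h (x axis), with the mean and SD of 4 libraries in red. Vitellogenins, cuticle collagens, mitochondrially encoded genes and body wall muscle genes do not overlap between the times, whereas ribosomal and major sperm protein genes do.

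Cuticle collagens took a far smaller share of the transcriptome at 96 h. The col genes took 3.75 ± 0.468% of summed RPKM at 8 h and 0.385 ± 0.0177% at 96 h (SD, n = 4; exact permutation p = 0.0286, adjusted p = 0.0429 over 6 lists). Of 118 col genes tested, 53 fell and 18 rose (median -0.66). col-140 (chromosome V, 5835855 to 5836834, minus strand) read 2076, 1482, 1574 and 1736 RPKM at 8 h and 42.9, 28.5, 31.0 and 57.7 at 96 h, a 42.9-fold lower mean (log2 change -5.45, SE 0.34, limma adjusted p = 2.2e-12). col-119 read 1908, 1474, 1548 and 1622 RPKM at 8 h and 62.8, 44.5, 50.3 and 58.9 at 96 h (log2 change -4.91, SE 0.31, limma adjusted p = 9.51e-13). col-20 read 477, 324, 364 and 403 RPKM at 8 h and 6.08, 3.81, 0.650 and 9.61 at 96 h, with library 3 of 96 h the lowest, and library 3 was lowest for col-80 and col-93 as well. The adult-specific collagen gene col-19 read 419, 325, 318 and 347 RPKM at 8 h and 39.6, 36.9, 47.0 and 35.3 at 96 h (log2 change -3.13, SE 0.29, limma adjusted p = 1.8e-10). Of the collagens that rose, col-183 went from 3.19 ± 1.36 to 47.5 ± 12.5 RPKM and col-50 from 0.248 ± 0.156 to 15.7 ± 2.11 (SD, n = 4; log2 changes 3.74 and 4.46).

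Of 18 collagens that set body shape, 7 fell and 5 rose (median 0.02). sqt-3 read 183, 227, 232 and 250 RPKM at 8 h and 15.7, 17.6, 16.4 and 10.9 at 96 h (log2 change -3.85, SE 0.28, limma adjusted p = 5.17e-13). dpy-17, which acts with sqt-3, changed by -3.13, and the collagen genes dpy-7, dpy-10 and dpy-3 changed by -3.13, -2.57 and -2.44. All of them were without overlap between the times. The 5 that rose were dpy-4 (1.63), sqt-1 (1.36), sqt-2 (1.36), dpy-8 (0.97) and rol-6 (0.78), and dpy-9 did not pass (-0.25). Of 48 other genes of cuticle processing and moulting, 19 rose and 10 fell, near the 36.2% and 26.0% of all genes tested. Among those that fell was the cuticlin gene cut-3 (-4.09). The moulting peptidase gene nas-37 rose from 8.36 ± 1.32 to 19.6 ± 2.89 RPKM (SD, n = 4) and mlt-10 did not pass (log2 change 0.52, SE 0.27, limma adjusted p = 0.089). Of 17 basement membrane genes 7 rose and none passed as lower, or 1 with median-of-ratios scaling, where 36.2% and 26.0% of all genes tested did. Those that rose included the laminin gene lam-1 (1.03), the type XVIII collagen gene cle-1 (0.85) and ost-1, which encodes SPARC (0.66).

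Most genes of the respiratory chain, the citrate cycle and the proteasome were lower. Of 40 nuclear genes of the respiratory chain, 30 fell and none rose (median -0.66). The ATP synthase beta subunit gene atp-2 read 747, 817, 764 and 683 RPKM at 8 h and 308, 285, 308 and 330 at 96 h (log2 change -1.29, SE 0.19, limma adjusted p = 4.65e-07). ucr-2.3 (-1.89), sdha-2 (-1.73) and asb-1 (-1.62), each of which has a paralogue in the genome, also fell. Of 11 genes of the mitochondrial genome, 8 fell and none rose, and their share of summed RPKM went from 1.76 ± 0.250% to 1.13 ± 0.0548% (SD, n = 4; exact permutation p = 0.0286, adjusted p = 0.0429 over 6 lists). The cytochrome oxidase gene ctc-2 read 2111, 2133, 1780 and 2917 RPKM at 8 h and 957, 938, 922 and 838 at 96 h (log2 change -1.27, SE 0.20, limma adjusted p = 1.32e-06). Of 63 mitochondrial ribosomal protein genes, 35 fell and 2 rose (median -0.64), or 56 and 2 with median-of-ratios scaling.

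Of 27 genes of the citrate and glyoxylate cycles, 18 fell and 1 rose, with the mitochondrial malate dehydrogenase gene mdh-2 at -1.43. In glycolysis 7 of 19 genes fell and 2 rose. The glyceraldehyde phosphate dehydrogenase genes gpd-1 and gpd-4 changed by -2.81 and -2.73, while gpd-2 and gpd-3 did not pass (-0.27 and 0.13). The aldolase gene aldo-1 rose (1.19). The proteasome list was uniform: 27 of 30 subunit genes fell and none rose, by a narrow range of log2 changes from -0.87 to -0.33 over the 30 genes. The core subunit gene pbs-1 read 230, 272, 243 and 202 RPKM at 8 h and 130, 125, 140 and 139 at 96 h. The regulatory subunit gene rpn-1 read 107, 126, 125 and 99.1 RPKM at 8 h and 67.9, 60.2, 62.3 and 77.7 at 96 h. Cytosolic ribosomal protein genes took 10.3 ± 0.592% of summed RPKM at 8 h and 10.6 ± 0.423% at 96 h (SD, n = 4; exact permutation p = 0.486), with 9 of 78 higher and 1 lower. Their count depends on the fit. With upper quartile scaling 48 were higher, as were 6897 of all 14813 genes tested. With median-of-ratios scaling 9 were higher and 4 lower. Of 32 autophagy genes, 14 rose and 3 fell, or 15 and 7 with median-of-ratios scaling. Without that scaling 36.2% of all genes tested rose and 26.0% fell. The cargo receptor gene sqst-1 read 69.7, 65.6, 67.2 and 86.4 RPKM at 8 h and 306, 338, 326 and 342 at 96 h (log2 change 2.18, SE 0.22, limma adjusted p = 1.69e-10), and bec-1 and unc-51, which act in making autophagosomes, rose by 1.22 and 1.11. sepa-1, a cargo receptor gene of embryos, changed by -3.35.

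Fatty acid genes moved in both directions. In fatty acid oxidation 20 of 51 genes fell and 16 rose, where 26.0% and 36.2% of all genes tested did. The largest fall of any gene named by the rule was that of acdh-1 (chromosome I, 6497436 to 6499560, plus strand), an acyl-CoA dehydrogenase gene of an alternative route of propionate breakdown, which read 308, 245, 353 and 324 RPKM at 8 h and 1.19, 0.980, 0.540 and 3.53 at 96 h, a 197-fold lower mean (log2 change -7.41, SE 0.57, limma adjusted p = 1.78e-09). The enoyl-CoA hydratase gene ech-6 fell from 222 ± 12.5 to 51.5 ± 4.21 RPKM (SD, n = 4). The carnitine palmitoyltransferase genes cpt-3 and cpt-4 rose, cpt-3 from 4.19 ± 1.16 to 79.6 ± 10.5 RPKM and cpt-4 from 4.39 ± 0.280 to 52.0 ± 6.67 (SD, n = 4; log2 changes 4.12 and 3.42). Among 27 genes of fatty acid synthesis, 7 rose and 8 fell, where 36.2% and 26.0% of all genes tested did. The desaturase genes fat-3, fat-5 and fat-6 rose by 1.68, 1.27 and 1.197. The elongase genes elo-2 and elo-6 changed by -1.04 and -1.28. The transcript with the highest RPKM in each library of 96 h was far-2, a fatty acid and retinol binding protein gene named after its values were seen, at 4784, 3857, 3880 and 4683 RPKM at 8 h and 12115, 12617, 12170 and 10668 at 96 h. In each library of 8 h the highest was vit-2.

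Detoxification genes moved in both directions. Of 59 cytochrome P450 genes, 31 rose and 12 fell, and of 59 UDP-glucuronosyltransferase genes, 26 rose and 8 fell. Of 42 glutathione S-transferase genes, 15 rose and 11 fell, or 13 and 13 with median-of-ratios scaling. Among all genes tested 36.2% were higher and 26.0% lower. cyp-35B1 read 7.19, 6.24, 5.20 and 5.98 RPKM at 8 h and 124, 83.7, 114 and 116 at 96 h (log2 change 4.04, SE 0.26, limma adjusted p = 1.54e-15) and cyp-35A3, of the same gene family, changed by -2.52. Of 195 nuclear hormone receptor genes, 122 rose and 9 fell. The median log2 change was 0.74, and 58 of those that rose did so at least 2-fold. nhr-84 was among the clearest, at 7.54, 6.45, 6.68 and 8.21 RPKM at 8 h and 27.3, 33.1, 34.8 and 38.1 at 96 h (log2 change 2.13, SE 0.22, limma adjusted p = 1.85e-10).

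Neuropeptide and pan-neuronal genes were mostly higher. All 30 genes of FMRFamide-like peptides tested rose, by log2 changes of 0.93 to 2.61 (median 1.46). flp-5 read 11.1, 7.03, 9.31 and 10.98 RPKM at 8 h and 36.99, 48.2, 32.5 and 34.8 at 96 h (log2 change 1.94, SE 0.23, limma adjusted p = 3.49e-09). flp-15 read 19.1, 13.9, 16.9 and 17.9 RPKM at 8 h and 51.3, 69.1, 65.7 and 62.6 at 96 h (log2 change 1.85, SE 0.21, limma adjusted p = 1.38e-09). Of 42 nlp neuropeptide-like genes, 32 rose and 2 fell, with nlp-16 at 2.32 and nlp-18 at 2.43. The genes nlp-24 to nlp-34 of this list are also counted below as antimicrobial peptides. The 2 that fell, nlp-24 and nlp-33 (-2.49 and -1.31), are among them. Of 31 pan-neuronal genes, 23 rose and 1 fell (median 0.92), and 7 were lower with median-of-ratios scaling. Of 22 genes of dopamine synthesis and handling, 7 rose, 2 fell and the others did not pass (median 0.18). Among all genes tested 36.2% rose and 26.0% fell. The synaptic vesicle genes unc-13 and rab-3 rose by 1.68 and 1.33, the neuropeptide processing gene egl-21 by 1.18 and the dense core vesicle gene ida-1 by 1.29. Neurons neither divide nor are born in adults, and the falls of germline transcripts stand beside these rises in the same libraries. The part that the change in germline RNA had in them was not tested.

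Insulin-like peptides act as hormones on the insulin receptor, and 21 of 32 of their genes rose while 3 fell (median 1.2). ins-19 (chromosome II, 3126037 to 3126441, minus strand) read 0.590, 0.660, 1.01 and 2.08 RPKM at 8 h and 71.9, 151, 67.9 and 53.2 at 96 h (log2 change 5.74, SE 0.38, limma adjusted p = 4.78e-12). ins-7, an agonist gene expressed in intestine and neurons, read 24.9, 17.0, 15.9 and 25.2 RPKM at 8 h and 109, 112, 111 and 84.6 at 96 h (log2 change 2.32, SE 0.32, limma adjusted p = 5.89e-07), and library 4 was the lowest of the 96 h group. The agonist gene daf-28 rose from 2.11 ± 1.03 to 9.04 ± 2.16 RPKM and ins-10 from 1.67 ± 0.679 to 23.7 ± 3.85 (SD, n = 4).

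Of 4 genes followed by the study for their response to injury, 3 also moved in these uninjured worms. fos-1 (chromosome V, 6003601 to 6016087, plus strand), a subunit of the transcription factor AP-1, read 16.1, 15.3, 16.1 and 20.1 RPKM at 8 h and 40.9, 48.6, 44.6 and 46.8 at 96 h (log2 change 1.401, SE 0.22, limma adjusted p = 1.51e-06, exact permutation p = 0.0286, adjusted p = 0.0476 over 5 genes). It overlaps the proteasome gene rpt-2 on the other strand, and without a stated strand setting the reads of the 2 cannot be told apart. The MAPK phosphatase gene vhp-1 (chromosome II, 5323276 to 5340829, plus strand) read 39.6, 39.0, 38.8 and 48.7 RPKM at 8 h and 138, 154, 145 and 165 at 96 h (log2 change 1.85, SE 0.23, limma adjusted p = 8.78e-09, exact permutation p = 0.0286). The lysozyme gene lys-3 (chromosome V, 10282100 to 10283544, minus strand) fell, with 22.6, 21.5, 24.4 and 25.9 RPKM at 8 h and 12.7, 11.82, 13.1 and 13.3 at 96 h (log2 change -0.86, SE 0.24, limma adjusted p = 0.002, exact permutation p = 0.0286). For these 3 genes no library of one time overlapped the other, as for 70.9% of all genes tested. The smallest p that 70 arrangements can give is 0.0286. cat-2, the tyrosine hydroxylase gene of dopamine synthesis, read 0.960, 0.820, 0.550 and 0.760 RPKM at 8 h and 0.970, 0.690, 1.27 and 1.15 at 96 h and did not pass (log2 change 0.25, SE 0.25, limma adjusted p = 0.39, exact permutation p = 0.171). Among 28 MAPK and AP-1 genes, 18 rose and 2 fell (median 0.98), or 18 and 6 with median-of-ratios scaling. The adaptor gene tir-1, which acts upstream of p38, rose from 14.3 ± 1.55 to 71.1 ± 8.29 RPKM, the kinase gene mak-2 from 32.6 ± 2.39 to 132 ± 10.2 and the bZIP genes cebp-1 and zip-2 from 42.8 ± 4.21 to 218 ± 14.3 and from 136 ± 17.9 to 508 ± 43.8 (SD, n = 4).

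Stress genes moved in both directions. Of 15 small heat shock protein genes, 10 rose and 2 fell. hsp-16.2 (chromosome V, 1804334 to 1804957, minus strand), induced by heat and other stress, read 26.0, 21.2, 19.98 and 27.7 RPKM at 8 h and 323, 328, 330 and 363 at 96 h (log2 change 3.81, SE 0.29, limma adjusted p = 3.03e-12). hsp-16.41 rose from 21.03 ± 5.11 to 240 ± 28.0 RPKM, and the pair hsp-16.48 and hsp-16.49 by 2.63 and 2.66, although such paired copies are near-identical. sip-1, a small heat shock gene expressed in oocytes and embryos, fell, with 1283, 1671, 1346 and 880 RPKM at 8 h and 181, 130, 158 and 228 at 96 h (log2 change -2.88, SE 0.26, limma adjusted p = 3.36e-11). Among 33 cytosolic chaperone genes 4 rose and 9 fell, or 4 and 19 with median-of-ratios scaling. Those that rose were the Hsp70 genes F44E5.4, F44E5.5 and hsp-70 and the Hsp90 gene daf-21. F44E5.4, an inducible Hsp70 gene, read 18.0, 20.7, 25.05 and 28.8 RPKM at 8 h and 347, 387, 398 and 450 at 96 h (log2 change 4.08, SE 0.23, limma adjusted p = 2.18e-17), and hsp-70 read 4.13, 3.04, 3.77 and 5.19 RPKM at 8 h and 43.7, 44.8, 46.4 and 50.8 at 96 h (log2 change 3.39, SE 0.23, limma adjusted p = 1.53e-14). The chaperonin subunit gene cct-8 fell (-1.003). Of 25 genes of the endoplasmic reticulum unfolded protein response, 13 rose and 1 fell. Its transcription factor gene xbp-1 rose by 1.44 and the chaperone gene hsp-4 by 0.91.

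Immune effector genes were among the largest rises and also moved down. Among 12 lysozyme genes 6 rose and 4 fell. ilys-3 (chromosome IV, 2464456 to 2465443, plus strand), an invertebrate-type lysozyme gene, read 0.360, 0.510, 0.520 and 0.540 RPKM at 8 h and 73.3, 74.4, 81.8 and 89.4 at 96 h, a 165-fold higher mean (log2 change 6.35, SE 0.29, limma adjusted p = 1.77e-18). lys-7 (chromosome V, 3481432 to 3482600, minus strand) was far more abundant, at 495, 300, 407 and 654 RPKM at 8 h and 8920, 10168, 10502 and 8763 at 96 h (log2 change 4.42, SE 0.24, limma adjusted p = 5.95e-17). ilys-2 rose from 3.19 ± 0.514 to 75.5 ± 11.04 RPKM and lys-4 from 39.0 ± 6.18 to 205 ± 47.8, while ilys-5 fell from 347 ± 20.95 to 98.9 ± 22 (SD, n = 4). The libraries of the 2 times did not overlap for any of these 5 lysozyme genes, which was also so for 70.9% of all genes tested.

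Caenopores are saposin-like pore-forming proteins, and 9 of 21 of their genes rose and 5 fell, where 36.2% and 26.0% of all genes tested did. spp-9 was listed at 0 in all 4 libraries of 8 h and read 16.6, 23.7, 51.3 and 11.4 RPKM at 96 h (limma adjusted p = 4.55e-13), for which no fold is given. spp-17 fell, with 1141, 1008, 875 and 759 RPKM at 8 h and 86.4, 46.6, 98.8 and 68.7 at 96 h (log2 change -3.68, SE 0.24, limma adjusted p = 1.66e-15). Of 42 genes in a list of antimicrobial peptides, mainly of the epidermis, 25 rose and 3 fell (median 1.19). The list shares nlp-24 to nlp-34 with the nlp list above. It also holds abf genes, and in whole worms the tissue of a rise was not measured. abf-2 read 38.4, 30.7, 25.6 and 35.8 RPKM at 8 h and 777, 889, 904 and 745 at 96 h (log2 change 4.66, SE 0.29, limma adjusted p = 1.26e-13) and fipr-24, of a family of fungus-induced protein related genes, read 4.58, 2.75, 2.33 and 2.78 RPKM at 8 h and 85.9, 79.8, 95.4 and 94.4 at 96 h (log2 change 4.66, SE 0.42, limma adjusted p = 6.2e-09). C-type lectin genes moved both ways, 42 of 102 higher and 24 lower, near the 36.2% and 26.0% of all genes tested. Their share of summed RPKM was 0.988 ± 0.0839% at 8 h and 0.659 ± 0.0262% at 96 h (SD, n = 4; not tested). clec-146 rose from 43.3 ± 6.83 to 282 ± 18.6 RPKM and clec-67 fell from 35.8 ± 5.18 to 2.77 ± 0.165 (SD, n = 4). Of 26 infection response genes 12 rose, among them thn-1, a thaumatin-like gene (3.38), and irg-1 (2.15), and 6 fell, among them C32H11.9 (-5.002) and C32H11.4 (-3.95). Beside these counts stand the same 36.2% and 26.0% of all genes tested.

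Transthyretin-like genes, a nematode family of small secreted proteins, rose in 36 of 48 cases and fell in 4, and took 1.14 ± 0.126% of summed RPKM at 8 h and 3.54 ± 0.160% at 96 h (SD, n = 4). ttr-51 read 1386, 957, 970 and 1316 RPKM at 8 h and 8978, 9087, 8492 and 7612 at 96 h (log2 change 2.90, SE 0.26, limma adjusted p = 5.59e-11) and ttr-45 read 575, 451, 425 and 528 RPKM at 8 h and 3728, 3594, 3689 and 3515 at 96 h (log2 change 2.88, SE 0.21, limma adjusted p = 9.16e-14). ttr-42 fell, from 115 ± 15.2 to 18.8 ± 1.85 RPKM.

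Genes of differentiated somatic tissues moved in both directions. Body wall muscle genes took 0.555 ± 0.0441% of summed RPKM at 8 h and 0.466 ± 0.00723% at 96 h (SD, n = 4; exact permutation p = 0.0286, adjusted p = 0.0429 over 6 lists). By gene 11 of 35 rose and 4 fell, where 36.2% and 26.0% of all genes tested did. With median-of-ratios scaling 8 rose and 8 fell. The myosin genes unc-54 and myo-3 did not pass (log2 change -0.32, SE 0.40, limma adjusted p = 0.503 and log2 change 0.37, SE 0.26, limma adjusted p = 0.216). The troponin gene tnt-2 fell (-1.57) and the thick filament gene unc-96 rose (1.44). Of 21 pharynx genes, 14 rose and 3 fell, with the pharyngeal myosin gene myo-2 at 2.57, 2.83, 2.5 and 2.26 RPKM at 8 h and 5.21, 5.43, 5.56 and 5.99 at 96 h (log2 change 0.99, SE 0.30, limma adjusted p = 0.00416) and pha-4, the organ identity factor gene, at 1.81. Among 29 intestine genes 14 rose and 5 fell. elt-2, the GATA factor gene of intestinal identity, read 7.73, 7.87, 7.07 and 8.78 RPKM at 8 h and 21.7, 18.6, 20.5 and 17.6 at 96 h (log2 change 1.26, SE 0.25, limma adjusted p = 5.88e-05) and the intestinal esterase gene ges-1 read 32.6, 25.8, 27.5 and 36.3 RPKM at 8 h and 52.7, 44.3, 50.02 and 49.5 at 96 h (log2 change 0.69, SE 0.22, limma adjusted p = 0.00632).

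The 15 largest fitted rises among abundant genes without overlap began with F20E11.17 (chromosome V, 17468613 to 17469280, minus strand), which read 1.0, 1.57, 3.42 and 0.840 RPKM at 8 h and 293, 290, 295 and 176 at 96 h (log2 change 7.01, SE 0.53, limma adjusted p = 1.22e-09). After ilys-3 came lips-11, a lipase-related gene, at 3.0, 4.59, 1.94 and 1.72 RPKM at 8 h and 507, 124, 166 and 234 at 96 h (log2 change 6.15, SE 0.61, limma adjusted p = 7.53e-08), in which library 1 of 96 h was above the other 3. ins-19, B0238.12 (5.67), C50F7.5 (5.45), K09F6.13 (5.15), Y51B9A.8 (5.08) and C18D11.6 (4.88) followed. spp-9 also entered the 15, but it was at 0 in every library of 8 h, so its place among them is set by the pseudocount and is no measure of its rise. The others were F48C1.9 (4.83), C54F6.15 (4.73), fipr-24, abf-2 and T23E7.6 (4.64). C50F7.5, the most abundant of the 15 at 96 h, read 27.4, 27.7, 33.2 and 33.7 RPKM at 8 h and 1604, 1169, 1225 and 1422 at 96 h.

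Among the 15 largest falls 9 were col genes: col-20 (-6.51), col-80 (-6.37), col-93 (-6.001), col-160 (-5.52), col-140, col-119, col-178 (-4.91), col-179 (-4.62) and col-165 (-4.44). The others were acdh-1, C32H11.9, T05H10.3 (-4.83), pud-3 (-4.83), T13F3.6 (-4.64) and dsl-2, a gene of the Delta and Serrate ligand family (-4.54). pud-3 read 844, 590, 588 and 835 RPKM at 8 h and 15.9, 37.5, 33.5 and 17.2 at 96 h (log2 change -4.83, SE 0.45, limma adjusted p = 1.99e-08), with libraries 1 and 4 of 96 h below libraries 2 and 3. Of the 30 genes, col-80, col-119, col-179, abf-2, T23E7.6, T05H10.3 and T13F3.6 overlap a gene on the other strand and col-160 one on the same strand, so that reads could be shared. The same holds, on the other strand, for mcm-2, glp-1, him-3, fzy-1, cpg-3, cpg-7, perm-2, inx-14, col-19, col-183, cut-3, nas-37, cle-1, ceh-60, ucr-2.3, fat-5, rab-3, ins-10, hsp-70, ttr-42 and ttr-51, and on the same strand for chs-1, mlt-10 and zip-2.

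Controls collected at 48 h lay mostly between the 2 times. Library 4 of 48 h, in which rRNA took 46.1% of the reads, was left out, while library 2, with 8.29%, was kept. Of the 5355 genes higher at 96 h, 4420 had a 48 h mean between those of 8 h and 96 h. Of the 3844 genes lower, 3196 did. The median gene of those higher had moved by 0.83 on the log2 scale from 8 h to 48 h and by 0.30 from 48 h to 96 h. For those lower the steps were -0.84 and -0.23. The eggshell and fertilization list moved by a median of -1.83 in the first interval and -0.40 in the second. Several lists turned between the intervals by the change of their median gene. The col list moved by 0.38 and then by -1.33, with 61 of its 118 genes between, body shape collagens by 1.15 and then -0.74 and basement membrane genes by 0.74 and then -0.37, with 5 of 17 between. By share of summed RPKM the collagens did not turn. The col genes took 3.75% at 8 h, 1.05% at 48 h without library 4 and 0.385% at 96 h. Body shape collagens took 0.116, 0.0337 and 0.0161%. The proteasome list moved by -0.78 and then by 0.16, with only 2 of its 30 genes between. All 30 flp genes lay between. These values are a description with no test, and they share their libraries with the comparison of 96 h and 8 h.

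The spread among libraries was of similar size at both times. The median SD of log2(RPKM + 0.5) over the genes tested was 0.191 at 8 h and 0.164 at 96 h, and 6275 of 14813 genes had the larger SD at 96 h. The DNA replication and oocyte RNA-binding protein lists had the larger median SD at 96 h, 0.219 at 8 h and 0.261 at 96 h for DNA replication and 0.248 at 8 h and 0.313 at 96 h for oocyte RNA-binding proteins.

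Whether the change over 4 days was the same in injured worms was tested with the injury by time interaction, the change of injured worms minus that of controls. It passed for 6469 of 14813 genes (43.7%; limma, Benjamini-Hochberg adjusted p below 0.05), with the injured change above the control change for 3490 (23.6%) and below it for 2979 (20.1%). With upper quartile scaling the split was 3452 above and 5471 below. The interaction and the control comparison share the 8 control libraries, so genes picked by one are not independent evidence in the other. The values below are changes, not levels. Whether injured worms and controls differed at 8 h, at 96 h or at both times is not described here.

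Germline lists held many such genes. Of 39 DNA replication genes the interaction passed as higher for 38, and the list median was -1.61 in controls and 0.00 in injured worms. It passed as higher for 34 of 37 meiotic genes (medians -1.54 and 0.27) and for 34 of 43 oocyte genes (medians -1.84 and -0.04). For the mitochondrial ribosomal proteins it was 56 of 63 genes (medians -0.64 and 0.58). mcm-2, for example, had log2 changes of -2.5 in controls and -0.44 in injured worms (interaction adjusted p = 4.93e-06), and oma-2 of -3.11 and -0.31 (interaction adjusted p = 5.31e-07).

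In the other direction the interaction passed as lower for 33 of 48 transthyretin-like genes, 23 of 42 genes of the antimicrobial peptide list, 22 of 35 muscle genes and 12 of 17 basement membrane genes. ilys-3 changed by 6.35 in controls and 0.61 in injured worms (interaction adjusted p = 4.33e-12). Of the vitellogenins the injured change was lower for vit-2 (-0.73 and -2.197, interaction adjusted p = 0.0358) and vit-5 (-0.43 and -1.91, interaction adjusted p = 0.0231). The flp genes had interaction calls for 8 lower and 2 higher of 30, and fos-1, lys-3, vhp-1 and cat-2 gave none (interaction adjusted p = 0.282, 0.165, 0.118 and 0.716). A p that misses the threshold does not show that the changes were equal, and 2 libraries of injured worms at 8 h had 5.08 and 7.82% of reads from rRNA.

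**Figure D5:**
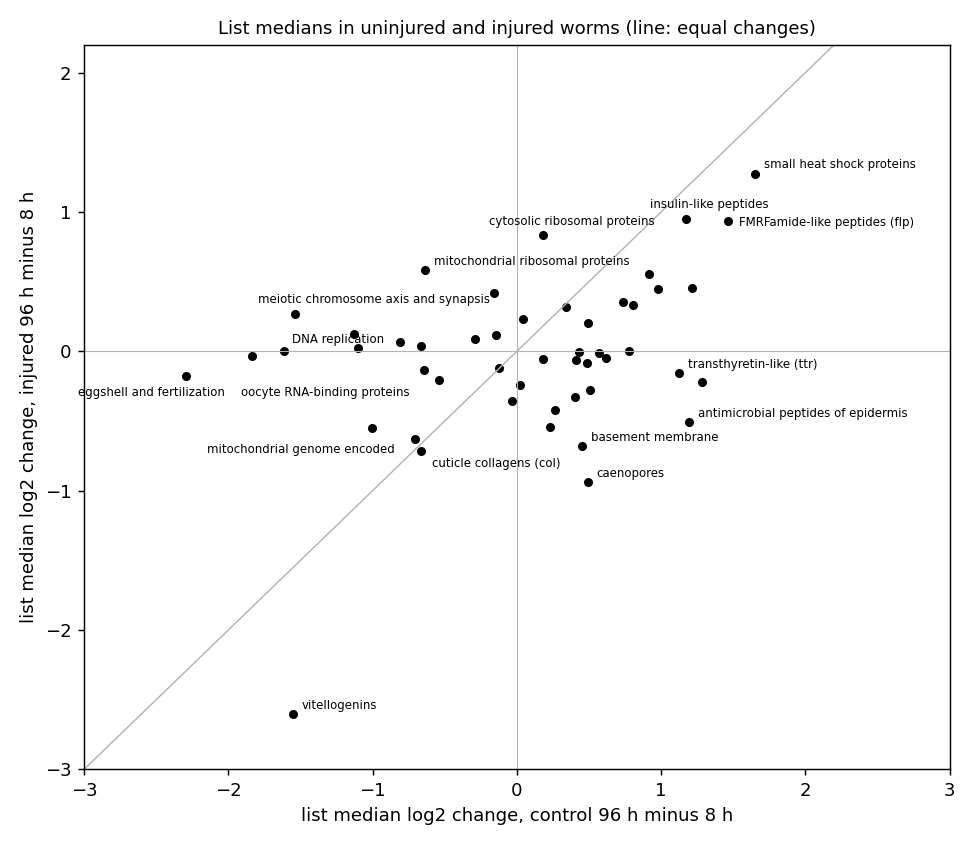
Each point is a gene list, placed by its median log2 change from 8 h to 96 h in uninjured controls (x axis) and in injured worms (y axis); the diagonal marks equal changes and selected lists are named. DNA replication, meiotic and oocyte lists lie far left of the diagonal near 0 in injured worms, and vitellogenins lie below it. The flp list (medians 1.46 in controls and 0.93 in injured worms) and the small heat shock protein list (1.65 and 1.27) lie below it by less, at the upper right. Of 15 small heat shock protein genes the interaction passed as lower for 6 and higher for 2.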

How the data were processed

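Poly(A) RNA of whole worms was sequenced in 24 libraries, 4 for each of 6 groups. The authors mapped the reads to ce11 and computed RPKM in CLC Genomics Workbench, and the deposited RPKM values, 1 column a library, were used as given. The strand setting, annotation release and rules for shared reads are not given in the sources used here. The deposited table also holds the authors' own p-values and fold changes between groups, which were not used. Depth was estimated from the steps between low RPKM values, of which 49.3 to 57.5% lay within 0.1 of a whole read in the 8 libraries, so no counts were recovered and no count test was run.

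Genes that reached an RPKM of 1 in 4 or more of the 24 libraries were tested on log2(RPKM + 0.5) with limma 3.58.1 in R 4.3.3 (6 group means, trend and robust settings, two-sided, Benjamini-Hochberg adjustment over all 14813 genes, threshold 0.05). A fold change on this scale understates the change of low genes. The replicates are separate libraries by their labels, and the sources used here do not say for each whether it was a separate culture, so p-values measure only the spread between these samples. For 5 genes and 6 list shares exact two-sided permutation tests over 70 arrangements were run. The fit was tested on simulated data. Of 46739 features, 45021 were found in the WBcel235 annotation under their symbol and 1271 under a sequence name, and 447 were not found.

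Members and lists were chosen with earlier results of these data known. Genes named were the study's genes, the RNAi target, the vitellogenins, the 15 largest rises and falls among called genes whose mean RPKM reached 10 in the higher group and whose libraries did not overlap, up to 6 called members of each list with the smallest p, cell type markers, and 5 genes in each direction of the interaction. Alternatives were other scalings, pseudocounts of 0.1 and 1, filters on low values, libraries left out and array quality weights. Summaries and figures used Python 3.11.15, numpy 2.4.6, pandas 2.3.3 and matplotlib 3.10.9.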

Additional observations from a re-analysis of the deposited data

Results flagged for a closer look

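A library stood apart from the other 3 of its group, by a gap to its nearest neighbour above Dixon's 95% critical value for 4 values, in 26 of 348 groups of 4 values of the genes named and of 6 list shares. Chance gives about 1 in 20. At 8 h library 4 was the highest for vhp-1 (gap 0.921 of the range), zip-2 (0.906), lys-4 (0.897), hsp-16.41 (0.851), thn-1 (0.845), fos-1 (0.836) and egl-15 (0.836). Other libraries of 8 h stood apart for vet-2 (0.891, library 2 high), vit-4 (0.878, library 2 low), Y51B9A.8 (0.858, library 1 high), cyp-35A3 (0.856, library 3 high), cpg-7 (0.853, library 3 low) and ilys-3 (0.833, library 1 low).

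At 96 h library 4 was the lowest for F20E11.17 (0.956), clec-67 (0.941), ins-7 (0.887) and nlp-16 (0.83), and the highest for hsp-16.41 (0.843). Library 1 was the highest for tnt-2 (0.964) and vit-6 (0.896) and the lowest for mak-2 (0.913), xbp-1 (0.894) and dpy-10 (0.863). Library 3 was the highest for col-183 (0.986) and col-50 (0.889), and library 2 for ttr-42 (0.836).

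The change from 8 h to 96 h differed between injured worms and controls for 6469 genes by the limma interaction test. The lowest interaction values (injured change minus control change, log2 scale) among abundant genes were those of fipr-24 (-6.95), C46G7.1 (-6.69), C50F7.5 (-6.07), fipr-22 (-6.03) and fipr-23 (-5.99). The fipr genes have near-identical copies, and C46G7.1 was listed at 0 in every control library of 8 h, so that its value depends on the pseudocount. The highest were those of C27H5.6 (4.55), acdh-1 (4.31), col-80 (3.44), C17E7.12 (3.41) and T13F3.6 (3.38).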

How the results depend on the processing

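Over 26 alternatives, 8 of them chosen after seeing the data (each injured library of 8 h and 96 h left out in turn), 169 of 175 values of single genes followed kept their direction and their side of the threshold. The exceptions, which passed in at least 1 alternative, were vit-2, vit-5, vit-6, myo-3, unc-54 and mlt-10. The genes changed by the interaction rose to 9821 with array quality weights. With median-of-ratios scaling the injured change was above the control change for 4532 genes and below it for 4282. With rRNA-rich libraries dropped these counts were 4296 and 4278, against 3490 and 2979 as reported. Vitellogenin genes lower numbered 5 with median-of-ratios scaling, without the libraries with over 5% rRNA reads and with weights, and 6 in the 8 control libraries alone. In the order upper quartile scaling, 8 control libraries alone, without rRNA-rich libraries and weights, muscle genes higher numbered 18, 18, 18 and 19 and cytosolic ribosomal protein genes higher 48, 34, 34 and 43. Basement membrane genes higher numbered 13 in each of the last 3 of these. More of all genes tested were also higher in these settings, in the same order 6897, 6499, 6309 and 6863, against 5355 as reported. In the order median-of-ratios scaling, 8 control libraries alone, without rRNA-rich libraries and weights, chaperone genes lower numbered 19, 15, 15 and 17 and glycolysis genes lower 15, 14, 14 and 14. More of all genes tested were also lower in those settings, in the same order 5351, 4916, 4750 and 5128, against 3844 as reported. Mitochondrial ribosomal protein genes lower numbered 56 with median-of-ratios scaling and 53 with weights. With upper quartile scaling endoplasmic reticulum genes higher numbered 20 and mitochondrially encoded genes lower 5. With a filter at RPKM 5, which tests fewer genes, C-type lectins higher numbered 25, glutathione S-transferases 7, dopamine genes 3 and embryo genes lower 20. With median-of-ratios scaling genes lower also numbered 4 in the endoplasmic reticulum list, 6 in the antimicrobial peptide list and 15 among nuclear hormone receptors, against 1, 3 and 9 as reported. The cause of the other moves was not tested.

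Leaving out 1 library in turn moved the counts over all genes less than array quality weights did. It gave 8235 to 9441 genes changed and 5445 to 6852 for the interaction. Vitellogenin genes lower numbered 3 to 5 (5 without injured 8 h library 2 or library 4). Ratios of the share at 96 h to that at 8 h were 0.448 to 0.498 for vitellogenins, 0.0982 to 0.108 for col genes, 0.607 to 0.679 for mitochondrially encoded genes and 0.815 to 0.860 for muscle genes. With 3 libraries of 96 h against 4 of 8 h, each of these 4 shares had an exact permutation adjusted p of 0.0857. The major sperm protein ratio was 0.521 to 1.08, reversed without library 3 of 8 h (1.08) and without library 1 of 96 h (1.00). No paired analysis was possible because the columns of the deposited table carry no replicate numbers that the labels tie to a sample.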

Other observations

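Of 23 other lists with genes tested that are not described above, 22 had called genes in both directions and 1 had none lower. DAF-16 upregulated longevity genes took 0.597 ± 0.0267% of summed RPKM at 8 h and 1.19 ± 0.0216% at 96 h (SD, n = 4). Glutathione S-transferases took 0.181 ± 0.00864% and 0.127 ± 0.00251%, and ferritin and metal response genes 0.149 ± 0.0210% and 0.227 ± 0.00792%. Pharynx genes took 0.106 ± 0.0124% and 0.0929 ± 0.00678% although most of them rose. These shares were not tested. Transcripts annotated as ncRNA numbered 62 among the genes tested, with 31 higher and 5 lower. Pseudogenes numbered 411, with 162 (39.4%) higher and 85 (20.7%) lower, where 36.2% and 26.0% of all genes tested were.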
